A study of Homo sapiens with 32 samples.

Results

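TXNIP (thioredoxin-interacting protein), the 4 other alpha-arrestins measured above background in these cells (ARRDC1, ARRDC2, ARRDC3 and ARRDC4) and MLXIP, the gene of the transcription factor MondoA, were followed through 32 RNA-Seq libraries of 2 human breast cell lines. These 6 genes were taken by symbol from the 19815 protein-coding genes of the count tables, and all 6 passed the filter for low counts in both lines. TXNIP was picked for its higher counts with PP242 in these libraries, and the others were selected by family or by their place upstream of TXNIP. Every difference of TXNIP between cells with and without PP242 is therefore given as a description with no test. The other TXNIP comparisons use some of the same libraries as those that picked it, so their p-values are not independent of that choice.

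MCF10A is an immortalised, non-tumorigenic line of breast epithelium, and MDA-MB-231 was derived from a metastatic triple-negative breast carcinoma. Cells of each line were kept in normoxia (N), in hypoxia of 0.5% O2 for 24 hours (H), in normoxia with PP242 at 2.5 µM for 3 hours (NPP), or in hypoxia with PP242 (HPP). PP242 blocks the kinase mTOR by competing with ATP. Libraries of total mRNA (T) and of mRNA taken from the polysomes (P) of a sucrose gradient gave 8 groups of 2 replicates in each line. MCF10A medium held EGF, hydrocortisone, cholera toxin and insulin, which the MDA-MB-231 medium did not, and each line is a single culture-adapted line deposited in a table of its own, so cell line, medium and batch cannot be told apart. By the study's methods PP242 was dissolved in DMSO, and an equal amount of DMSO was given to control cells.

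Library totals ran from 18340916 to 46032327 counts with a median of 34561484. Levels are given as CPM, the protein-coding counts relative to library size, on a scale shared by the 32 libraries. Differences are log2 fold changes (log2FC) with their standard error (SE), tested by edgeR over all genes. A gene was called at an adjusted p under 0.05. With 2 libraries against 2, no permutation test of a single gene could go below a two-sided p of 0.333, so the tests rest on the spread pooled over genes and groups. Statements that groups do not overlap are descriptions for the same reason. The share of all genes whose groups did not overlap was not counted. That spread was wider in MCF10A (biological coefficient of variation 0.325) than in MDA-MB-231 (0.150).

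The labels were set against marker genes. KRT5, a basal keratin, stood at 1407 to 3838 CPM in the 16 MCF10A libraries and at no more than 0.238 CPM in MDA-MB-231. The basal keratins KRT14 (542 to 4936 CPM) and KRT17 (57.3 to 1246 CPM) were also expressed in every MCF10A library and did not exceed 0.538 and 5.61 CPM in MDA-MB-231. The epithelial adhesion genes CDH1 and EPCAM were close to absent in MCF10A, with at most 16 counts each in any library, while the mesenchymal gene VIM reached 1832 to 11297 CPM, CDH2 32.2 to 95.1 CPM and ZEB1 5.35 to 37.4 CPM there. The 3 keratins were thus as the label of a breast epithelial line has it, while CDH1, EPCAM, VIM and CDH2 went against it. By the study's methods, its cell lines came from ATCC and their identity was checked by short tandem repeat profiling. Whether these libraries came from the line labelled MCF10A was not tested here, which bears on every comparison between the lines. MDA-MB-231 held VIM at 2736 to 5384 CPM and ZEB1 at 38.5 to 79.1 CPM, with CDH1 at no more than 10 counts, CDH2 at no more than 1.28 CPM and EPCAM at 8.67 to 16.9 CPM, above every MCF10A library (at most 0.525 CPM). The oestrogen and progesterone receptor genes ESR1 and PGR did not exceed 0.523 CPM in either line. Of the 6 markers of blood, vessel and liver cells, CD68, a lysosomal gene that many cell types express, stood at 38.4 to 168 CPM, and PTPRC, CD3E, PECAM1, VWF and ALB did not exceed 2.19 CPM. CA9, a target of the hypoxia-inducible factor, was at 8.86 to 29.1 CPM in the normoxic and 577 to 1539 CPM in the hypoxic MCF10A libraries. In MDA-MB-231 its ranges were 0.0476 to 0.917 and 11.1 to 31.0 CPM, so no hypoxic library overlapped a normoxic library of its line.

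Alpha-arrestins are adaptor proteins. Most carry PY motifs that bind E3 ubiquitin ligases of the NEDD4 family and bring them to membrane proteins, which are then taken up and degraded. TXNIP also binds thioredoxin and lowers glucose uptake by driving the glucose transporter GLUT1 (SLC2A1) from the cell surface. MondoA, paired with MLX, senses glucose phosphates and transcribes TXNIP and ARRDC4. ARRDC1 acts in the budding of small vesicles from the plasma membrane, and ARRDC3 acts in the trafficking of beta-adrenergic receptors and integrins.

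On GRCh38 the TXNIP gene lies at chr1:145992435-145996579 on the minus strand. ARRDC1 lies at chr9:137605685-137615360 (plus), ARRDC2 at chr19:18001132-18014102 (plus), ARRDC3 at chr5:91368631-91383317 (minus), ARRDC4 at chr15:97960703-97973833 (plus) and MLXIP at chr12:122078756-122147344 (plus). ARRDC1 overlaps the antisense gene ARRDC1-AS1 by 35 bases, ARRDC2 an unnamed antisense gene by 442 bases and ARRDC3 overlaps ARRDC3-AS1 by 2969 bases, and no strand is stated for these libraries, so reads from the shared bases cannot be told apart. In GENCODE v44 an unnamed lncRNA gene on the same strand also overlaps 9617 of the 9676 bases that ARRDC1 spans, and it was not analysed here. ARRDC1-AS1 stood at 3.74 to 17.6 CPM, ARRDC3-AS1 never exceeded 22 counts, and the gene antisense to ARRDC2 never exceeded 2.

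The windows of 250 bases before the start of TXNIP and of ARRDC4 are shown because MondoA and MLX are known to bind paired CACGNG boxes and because these genes made up both of the member calls between HPP and NPP. They come from RefSeq on GRCh38.p14, at chr1:145996580-145996829 on the minus strand for TXNIP and at chr15:97960453-97960702 on the plus strand for ARRDC4. Capitals mark matches on either strand to CACGTG, to GTAAACA (a forkhead box), to CCAAT and to CACGNG repeated after 5 bases, a set of motifs chosen with the windows in view.
TXNIP: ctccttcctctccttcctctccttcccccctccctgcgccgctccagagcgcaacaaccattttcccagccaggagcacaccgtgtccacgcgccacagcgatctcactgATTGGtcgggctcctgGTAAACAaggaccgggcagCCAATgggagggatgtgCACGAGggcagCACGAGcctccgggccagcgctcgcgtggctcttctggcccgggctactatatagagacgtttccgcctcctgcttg
ARRDC4: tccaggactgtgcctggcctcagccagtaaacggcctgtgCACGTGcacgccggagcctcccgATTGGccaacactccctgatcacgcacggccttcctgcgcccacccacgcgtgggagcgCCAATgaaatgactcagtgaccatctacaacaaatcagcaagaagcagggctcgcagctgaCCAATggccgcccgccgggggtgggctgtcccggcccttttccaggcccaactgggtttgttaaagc
The TXNIP window held the repeated CACGNG box at bases −88 to −72 from the gene start, GTAAACA at −124 to −118, and CCAAT at −105 to −101 and, on the opposite strand, at −140 to −136. The ARRDC4 window held CACGTG, which is also a CACGNG box, at −210 to −205, and CCAAT at −187 to −183 (opposite strand), −128 to −124 and −67 to −63. Single CACGNG boxes other than CACGTG were not marked, and both windows hold CACGCG in lower case. The repeated box was present in 16 of 35116 RefSeq windows of this length (0.0456%), CACGTG in 6.34%, GTAAACA in 2.98% and CCAAT in 11240 of the 35116. No repeated CACGNG box was found in the RefSeq windows of ARRDC1, ARRDC2, ARRDC3, ARRDC4 or MLXIP. GTAAACA was also matched in a RefSeq window of ARRDC3, on the opposite strand at −29 to −23. A match is a description of the letters in the window.

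In normoxia TXNIP had the highest level per exon length of the 6 genes in total mRNA of both lines. It stood at 25.1 and 25.3 CPM per kb in the 2 MCF10A libraries and at 47.2 and 38.6 in the 2 MDA-MB-231 libraries. ARRDC1 followed with 15.4 and 14.3 CPM per kb in MCF10A and with 5.82 and 5.65 in MDA-MB-231. ARRDC2 came next, at 5.78 and 6.12 CPM per kb in MCF10A and at 5.49 and 4.70 in MDA-MB-231.
Below them came MLXIP, ARRDC3 and ARRDC4. In MCF10A MLXIP stood at 2.84 and 3.19 CPM per kb, ARRDC3 at 2.45 and 2.30, and ARRDC4 at 1.34 and 1.55, with no overlap between neighbours. In MDA-MB-231 ARRDC3 (3.47 and 2.39) and MLXIP (2.12 and 2.63) overlapped, and ARRDC4 was lowest at 1.41 and 1.04 CPM per kb. In polysomal mRNA of normoxic MCF10A cells TXNIP was not the highest. ARRDC1 stood there at 27.5 and 15.8 CPM per kb and TXNIP at 12.9 and 21.9, which overlapped, while in MDA-MB-231 TXNIP stood at 42.4 and 47.1 against 8.24 and 7.08 for ARRDC1. ARRDC5, the sixth alpha-arrestin, never exceeded 4 counts in any library.

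**Figure D1:**
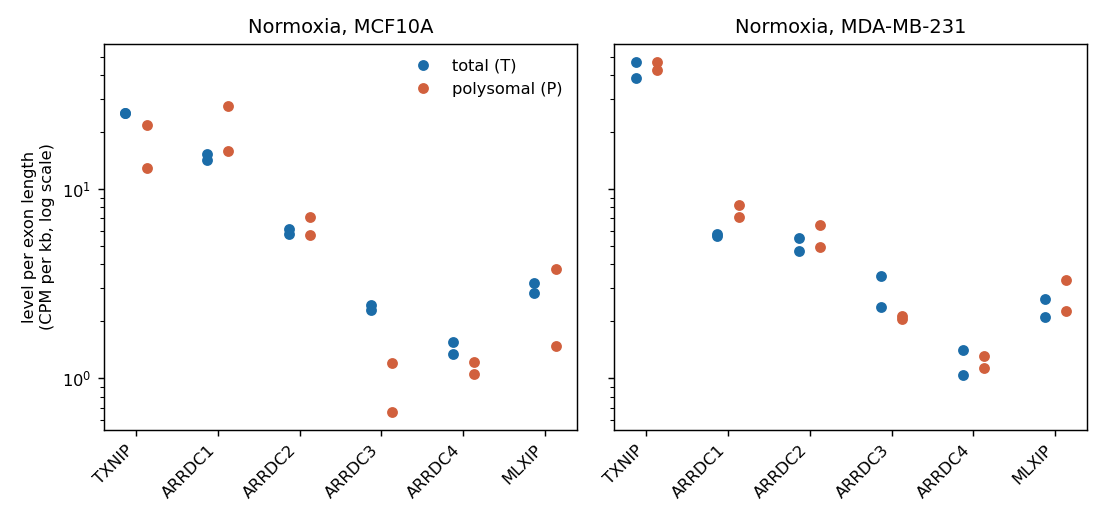
Level per exon length (CPM per kb, log axis) of the 6 genes in normoxia, with 1 point for each library of total (T, blue) and polysomal (P, orange) mRNA in MCF10A (left) and MDA-MB-231 (right). TXNIP total mRNA stood at 25.1 and 25.3 CPM per kb in MCF10A and at 47.2 and 38.6 in MDA-MB-231, above the other genes in total mRNA of its line, while in MCF10A polysomal mRNA ARRDC1 (27.5 and 15.8) overlapped TXNIP (12.9 and 21.9).

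Between the lines in normoxia, ARRDC1 was lower in MDA-MB-231 and TXNIP was higher there in polysomal mRNA. ARRDC1 total mRNA stood at 58.5 and 54.2 CPM in MCF10A and at 22.1 and 21.4 CPM in MDA-MB-231 (log2FC −1.37, SE 0.25, edgeR adjusted p = 0.000155). In polysomal mRNA it stood at 104.4 and 60.0 CPM against 31.2 and 26.8 CPM (log2FC −1.50, SE 0.25, adjusted p = 5.46e-05). The lines did not overlap for ARRDC1 in either fraction. In such bulk libraries, fewer cells that express a gene and less of its mRNA per cell cannot be told apart.
TXNIP polysomal mRNA stood at 46.4 and 79.0 CPM in MCF10A and at 153 and 170 CPM in MDA-MB-231 (log2FC 1.36, SE 0.32, adjusted p = 0.00136). In total mRNA the levels were 90.6 and 91.1 against 170 and 139 CPM, and this difference was just above the threshold (log2FC 0.77, SE 0.31, adjusted p = 0.0543). Other choices of scaling, filter or test took this p below it. Of all genes tested, 40.7% were called between the lines in total and 45.4% in polysomal mRNA, so 1 and 2 of the 6 members were not more than this background.

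Hypoxia alone went with more TXNIP mRNA in MCF10A and not detectably in MDA-MB-231. In MCF10A total mRNA TXNIP stood at 90.6 and 91.1 CPM in N and at 573 and 558 CPM in H, a 6.34-fold rise (log2FC 2.67, SE 0.39, adjusted p = 0.00514). In polysomal mRNA it stood at 46.4 and 79.0 CPM in N and at 395 and 639 CPM in H, a 7.81-fold rise (log2FC 2.97, SE 0.39, adjusted p = 0.00262). Every hypoxic library was far above every normoxic one. Without either of the N total libraries the log2FC stayed at 2.66, with adjusted p of 0.103 and 0.122, and a fit to only the 4 polysomal libraries gave a log2FC of 3.04 with an adjusted p of 0.0912.
MDA-MB-231 started from a higher level and moved little. TXNIP total mRNA stood at 170 and 139 CPM in N and at 195 and 195 CPM in H (log2FC 0.32, SE 0.17, adjusted p = 0.486). Polysomal mRNA stood at 153 and 170 CPM in N and at 175 and 185 CPM in H (log2FC 0.17, SE 0.17, adjusted p = 0.669). The difference between the lines in the effect of hypoxia was itself tested, and it was −2.30 in total (SE 0.44, adjusted p = 0.0247) and −2.88 in polysomal mRNA (SE 0.45, adjusted p = 0.00408), with the MDA-MB-231 effect the smaller. For all genes this test called 0.266% and 0.329%. In total mRNA the call was lost without any 1 of the 8 libraries compared, at log2FC of −2.44 to −2.13, and in polysomal mRNA with a fit to only those libraries (log2FC −2.88, adjusted p = 0.163).

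TXNIP was the 1 of 6 members called with hypoxia in each MCF10A fraction, where 1.54% of genes in total and 1.49% in polysomal mRNA were called. None of the other members was called there. Because TXNIP was picked with the same N libraries, its call is not a result about the family. No member was called with hypoxia in MDA-MB-231, where 1.27% and 2.29% of genes were. The median log2FC of the 6 members with hypoxia, TXNIP included, was 1.34 in MCF10A total and 1.41 in polysomal mRNA, and 0.30 and 0.23 in MDA-MB-231, against −0.03, −0.07, −0.02 and 0.01 over all genes.

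**Figure D2:**
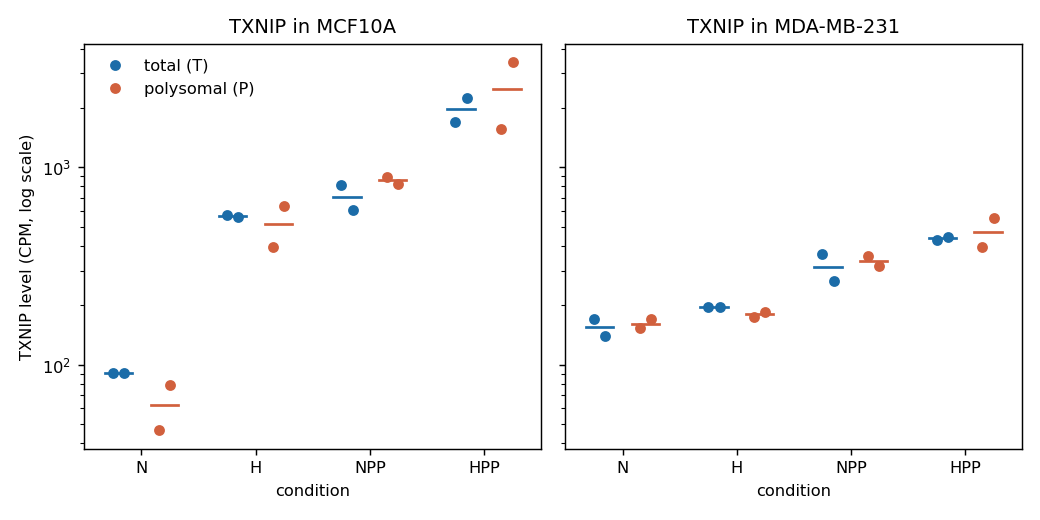
TXNIP level (CPM, log axis) in each library of MCF10A (left) and MDA-MB-231 (right) by condition, with points for libraries of total (T, blue) and polysomal (P, orange) mRNA and short lines at the mean of 2 libraries. In MCF10A total mRNA it stood near 91 CPM in N, at 573 and 558 in H, 811 and 611 in NPP, and 1702 and 2237 in HPP, while over all MDA-MB-231 libraries it ran from 139 to 552 CPM.

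ARRDC4, the other known MondoA target, and ARRDC3 were also higher in hypoxic MCF10A cells, though not past the threshold. ARRDC4 total mRNA stood at 5.46 and 6.30 CPM in N and at 24.8 and 23.5 CPM in H (log2FC 2.07, SE 0.57, adjusted p = 0.125). In polysomal mRNA it stood at 4.28 and 4.97 CPM in N and at 20.6 and 26.2 CPM in H (log2FC 2.26, SE 0.57, adjusted p = 0.0890). The N and H libraries did not overlap in either fraction, but those of ARRDC2 did not overlap either, at edgeR adjusted p of 0.766 and 0.852.
ARRDC3 total mRNA stood at 12.2 and 11.5 CPM in N and at 47.0 and 35.1 CPM in H (log2FC 1.83, SE 0.64, adjusted p = 0.271). Its polysomal mRNA stood at 3.30 and 6.04 CPM in N and at 22.3 and 31.7 CPM in H (log2FC 2.45, SE 0.66, adjusted p = 0.108). The ARRDC3 groups did not overlap either. Both ARRDC4 values and the polysomal ARRDC3 value passed the threshold with DESeq2 (adjusted p of 0.0138, 0.00431 and 0.00455). DESeq2 called 503 and 556 genes in MCF10A total and polysomal mRNA here, against 202 and 195 by edgeR. With no filter the polysomal ARRDC4 and ARRDC3 values passed it (0.0392 and 0.0465), and in a fit to only the libraries compared the total mRNA values did (0.00194 and 0.00481). That last fit called 601 genes in total mRNA and did not call the polysomal values. A fit with a block by replicate number within each fraction also called both ARRDC4 values (adjusted p of 0.0358 and 0.0238) and the polysomal ARRDC3 value (0.0177). RLE scaling and a replicate block over both fractions called none of these values.
In MDA-MB-231 the same genes were within 0.67 of normoxia on the log2 scale. ARRDC4 had a log2FC of 0.29 (SE 0.21) in total and 0.54 (SE 0.21) in polysomal mRNA, and ARRDC3 had 0.59 (SE 0.27) and 0.67 (SE 0.27), of which the polysomal value passed the threshold with no filter (adjusted p = 0.0321). The difference between lines for ARRDC4 was −1.73 (SE 0.64, adjusted p = 0.447) in total and −1.80 (SE 0.64, adjusted p = 0.447) in polysomal mRNA, and it did not pass the threshold. In a fit to only the libraries compared the total mRNA value (−1.81) passed it by a narrow margin, with an adjusted p that rounds to 0.05.

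ARRDC1 stood at 87.3 and 115 CPM in total mRNA of hypoxic MCF10A cells against 58.5 and 54.2 CPM in N (log2FC 0.86, SE 0.32, adjusted p = 0.304), and a fit to only these libraries called it (log2FC 0.87, adjusted p = 0.0454). In polysomal mRNA its log2FC was 0.56 (SE 0.32). ARRDC2 and MLXIP differed by less than 0.5 on the log2 scale between H and N in every line and fraction.

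PP242 went with a higher TXNIP level in both lines, which is the pattern it was picked for. In MCF10A NPP libraries TXNIP stood at 811 and 611 CPM in total and at 897 and 826 CPM in polysomal mRNA, against 90.6 and 91.1, and 46.4 and 79.0 CPM in N. These are log2FC of 3.01 (SE 0.39) and 3.80 (SE 0.41), or 8.06- and 14.0-fold. In MDA-MB-231 it stood at 362 and 264 CPM in total and at 355 and 315 CPM in polysomal NPP libraries, with log2FC of 0.99 (SE 0.17) and 1.03 (SE 0.17), or 1.99- and 2.05-fold. The lines differed by −1.95 (SE 0.44) in total and −2.73 (SE 0.45) in polysomal mRNA on the log2 scale.

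None of the other members was called with PP242 in normoxia. Of 20 member tests, 2 had an unadjusted p under 0.05 and 0 were called by edgeR, against 0.648% and 0.823% of genes in MCF10A total and polysomal mRNA and 0.555% and 1.95% in MDA-MB-231. Those were ARRDC2 in MCF10A, which DESeq2 called in both fractions. DESeq2 also called more genes than edgeR in this comparison, 347 in MCF10A total and 665 in polysomal mRNA. ARRDC2 total mRNA stood at 26.8 and 28.4 CPM in N and at 49.2 and 70.4 CPM in NPP (log2FC 1.16, SE 0.31, adjusted p = 0.154; DESeq2 adjusted p = 0.00808). Its polysomal mRNA stood at 32.9 and 26.5 CPM in N and at 54.8 and 66.6 CPM in NPP (log2FC 1.04, SE 0.31, adjusted p = 0.135; DESeq2 adjusted p = 0.0248).
ARRDC4 was not higher with PP242 in normoxic MCF10A cells. It stood at 3.91 and 2.91 CPM in total mRNA (log2FC −0.74, SE 0.56, adjusted p = 0.748) and at 2.72 and 4.44 CPM in polysomal mRNA (log2FC −0.35, SE 0.56, adjusted p = 0.868). The 2 NPP total libraries of ARRDC4 lay below both N libraries, a difference that was not called. Those of TXNIP lay above them, which is the pattern it was picked for. Whether the 2 genes differ in their response was not tested.

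The highest TXNIP levels were in cells with both hypoxia and PP242. In MCF10A HPP libraries it stood at 1702 and 2237 CPM in total and at 1565 and 3407 CPM in polysomal mRNA. Against N these are log2FC of 4.46 (SE 0.42) and 5.24 (SE 0.44), or 22.0- and 37.9-fold, and against H they are 1.79 (SE 0.38) and 2.28 (SE 0.38). The higher polysomal value was in replicate 2, and without it the polysomal log2FC was 4.63 against N and 1.67 against H.
In MDA-MB-231 HPP libraries TXNIP stood at 429 and 444 CPM in total and at 393 and 552 CPM in polysomal mRNA. Against N these are log2FC of 1.44 (SE 0.18) and 1.52 (SE 0.18), or 2.71- and 2.86-fold, and against H they are 1.12 (SE 0.18) and 1.35 (SE 0.18). The lines differed in the log2FC of HPP against N by −2.94 (SE 0.45) in total and −3.76 (SE 0.45) in polysomal mRNA, the latter −3.09 without MCF10A HPP replicate 2.

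Hypoxia in the presence of PP242 (HPP against NPP) was tested. TXNIP rose in MCF10A polysomal mRNA, from 897 and 826 to 1565 and 3407 CPM (log2FC 1.44, SE 0.37, adjusted p = 0.0400). In total mRNA it went from 811 and 611 to 1702 and 2237 CPM (log2FC 1.45, SE 0.37, adjusted p = 0.0522), a difference that DESeq2 called (adjusted p = 0.00276). The polysomal call was lost without HPP replicate 2 (log2FC 0.83, adjusted p = 0.343) and without either NPP library (adjusted p of 0.224 and 0.218).
In MDA-MB-231 the log2FC of TXNIP were 0.45 (SE 0.17, adjusted p = 0.198) in total and 0.48 (SE 0.17, adjusted p = 0.139) in polysomal mRNA, and the polysomal value passed the threshold with no filter (log2FC 0.54, adjusted p = 0.0427). ARRDC4 also rose in MCF10A polysomal mRNA, from 2.72 and 4.44 to 6.05 and 26.8 CPM (log2FC 2.10, SE 0.57, adjusted p = 0.0470). HPP replicate 2 set much of this value, and without it the log2FC was 0.72 (adjusted p = 0.540); the call was also lost without either NPP library (adjusted p of 0.323 and 0.149) and in a fit to only the libraries compared (log2FC 2.18, adjusted p = 0.0543). In total mRNA ARRDC4 went from 3.91 and 2.91 to 6.61 and 15.9 CPM (log2FC 1.68, SE 0.57, adjusted p = 0.132, DESeq2 adjusted p = 0.0394). Without HPP replicate 2 this log2FC was 0.98, and without HPP replicate 1 it was 2.22.
TXNIP and ARRDC4 were the 2 members called of 6 in MCF10A polysomal mRNA, where 7.44% of genes were called, and edgeR called none in MCF10A total mRNA (4.17%) or in MDA-MB-231 total (2.72%) and polysomal (3.55%) mRNA. TXNIP was picked with these PP242 libraries, and both calls were lost without HPP replicate 2, so the count is a description.

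ARRDC1 was called in total mRNA with HPP against N in both lines. In MCF10A it stood at 58.5 and 54.2 CPM in N and at 99.5 and 131 CPM in HPP (log2FC 1.05, SE 0.32, adjusted p = 0.0474). In MDA-MB-231 it stood at 22.1 and 21.4 CPM in N and at 30.3 and 34.5 CPM in HPP (log2FC 0.51, SE 0.15, adjusted p = 0.0348). The N and HPP libraries did not overlap in either line, and each call was lost without any 1 of its 4 libraries, at log2FC of 0.91 to 1.27 and 0.48 to 0.67. The MCF10A call was also lost with no filter (adjusted p = 0.0587). The polysomal log2FC were 0.57 (SE 0.32, adjusted p = 0.219) and 0.36 (SE 0.15, adjusted p = 0.0951).
ARRDC4 was called in MCF10A polysomal mRNA, from 4.28 and 4.97 CPM in N to 6.05 and 26.8 CPM in HPP (log2FC 1.75, SE 0.56, adjusted p = 0.0446). The 2 HPP libraries were far apart, and without replicate 2 the log2FC was 0.37 (adjusted p = 0.688); it was not called without either N library (adjusted p of 0.184 and 0.122) or in a fit to only the libraries compared (log2FC 1.83, adjusted p = 0.0791). In total mRNA it stood at 6.61 and 15.9 CPM in HPP (log2FC 0.94, SE 0.55, adjusted p = 0.296). Without HPP replicate 2 this log2FC was 0.26, and without HPP replicate 1 it was 1.50.
These were 3 calls among 20 member tests without TXNIP, in a comparison that called 14.9% and 22.2% of genes in MCF10A total and polysomal mRNA and 13.2% and 19.4% in MDA-MB-231, so the share was close to the background.

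**Figure D3:**
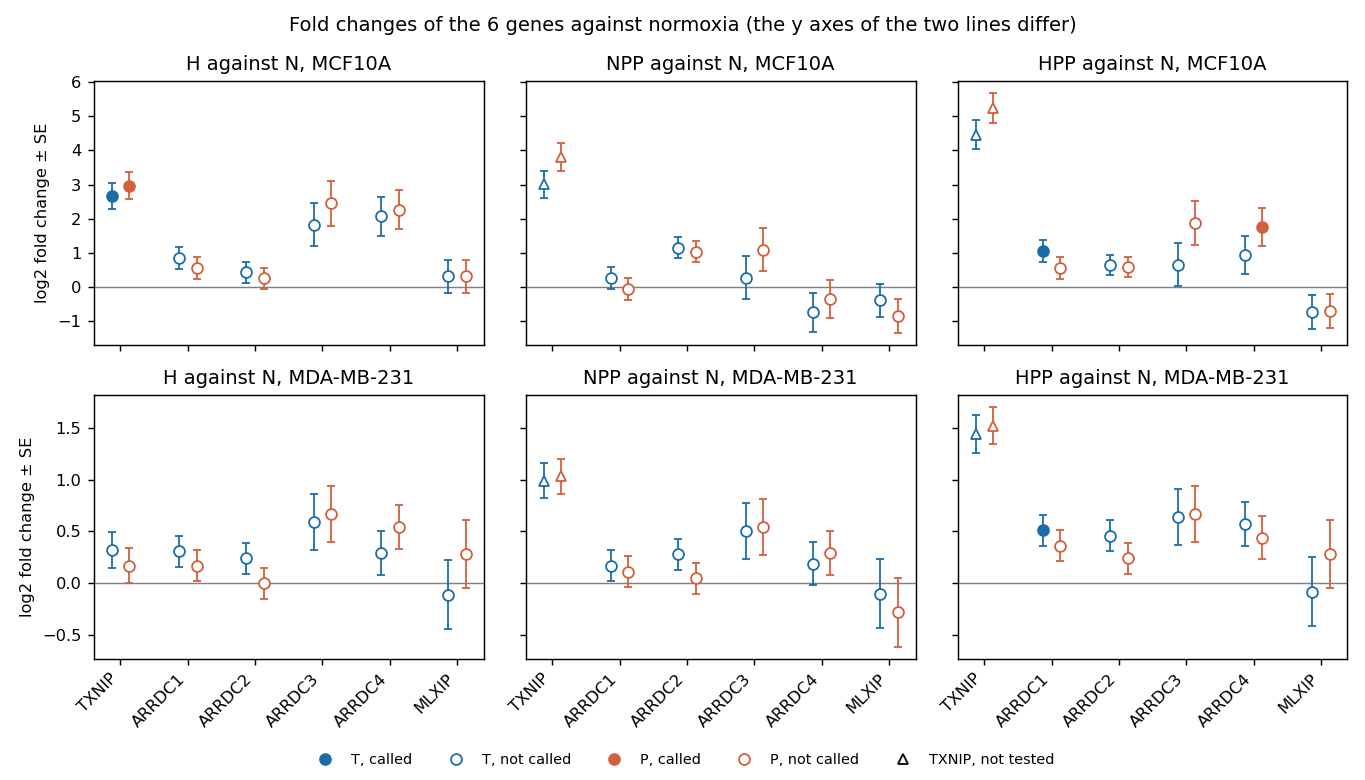
Log2 fold change with SE of the 6 genes against N for H, NPP and HPP, in MCF10A (top) and MDA-MB-231 (bottom, on a narrower axis), from 2 libraries a group. Filled points passed an adjusted p under 0.05, open points did not, and triangles mark TXNIP where it was not tested; TXNIP in MCF10A ran from 2.67 for H in total mRNA to 5.24 for HPP in polysomal mRNA.

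ARRDC2 in HPP had log2FC against N of 0.65 (SE 0.30) and 0.59 (SE 0.30) in MCF10A total and polysomal mRNA, and of 0.46 (SE 0.15, adjusted p = 0.0622) and 0.24 (SE 0.15) in MDA-MB-231. ARRDC3 had 0.66 (SE 0.62) and 1.87 (SE 0.64, adjusted p = 0.0578) in MCF10A and 0.64 (SE 0.27) and 0.67 (SE 0.27) in MDA-MB-231. With no filter the MDA-MB-231 values of ARRDC3 passed the threshold in total and polysomal mRNA (adjusted p of 0.0116 and 0.00550), as did the polysomal value in a fit to only the libraries compared (0.0295). The ARRDC2 value in MDA-MB-231 total mRNA passed it with DESeq2 (0.0332) and with no filter (0.0494). The polysomal ARRDC3 libraries of MCF10A stood at 3.30 and 6.04 CPM in N and at 6.82 and 29.2 CPM in HPP, so the groups were apart but HPP replicate 2 was again the higher. Without it the log2FC was 0.53, and with all libraries DESeq2 and a fit with no filter took the adjusted p to 0.0137 and 0.0338.
MLXIP was called in no comparison. Its total mRNA in MCF10A stood at 39.3 and 44.3 CPM in N and at 29.7 and 19.6 CPM in HPP (log2FC −0.72, SE 0.49, adjusted p = 0.370), and its level ran from 17.7 to 66.0 CPM over the 16 MCF10A libraries and from 21.2 to 54.1 CPM over the 16 of MDA-MB-231.

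PP242 in hypoxia (HPP against H) called none of the 20 member tests without TXNIP, with 0 at an unadjusted p under 0.05 and 0 by DESeq2. The background was 3.74% and 6.50% of genes in MCF10A total and polysomal mRNA and 3.78% and 11.5% in MDA-MB-231. ARRDC4 total mRNA of MCF10A stood at 24.8 and 23.5 CPM in H and at 6.61 and 15.9 CPM in HPP (log2FC −1.12, SE 0.55, adjusted p = 0.360). Both HPP libraries were thus below the H libraries, without a call, where those of TXNIP, picked for this, were above them. In polysomal mRNA the ARRDC4 groups overlapped (log2FC −0.51, SE 0.54, adjusted p = 0.656). Without 1 library the ARRDC4 value ran from −1.87 to −0.63 in total and from −1.88 to 0.17 in polysomal mRNA.
MLXIP had log2FC of −1.04 (SE 0.49, adjusted p = 0.331) and −1.02 (SE 0.49, adjusted p = 0.261) in MCF10A total and polysomal mRNA.

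**Figure D4:**
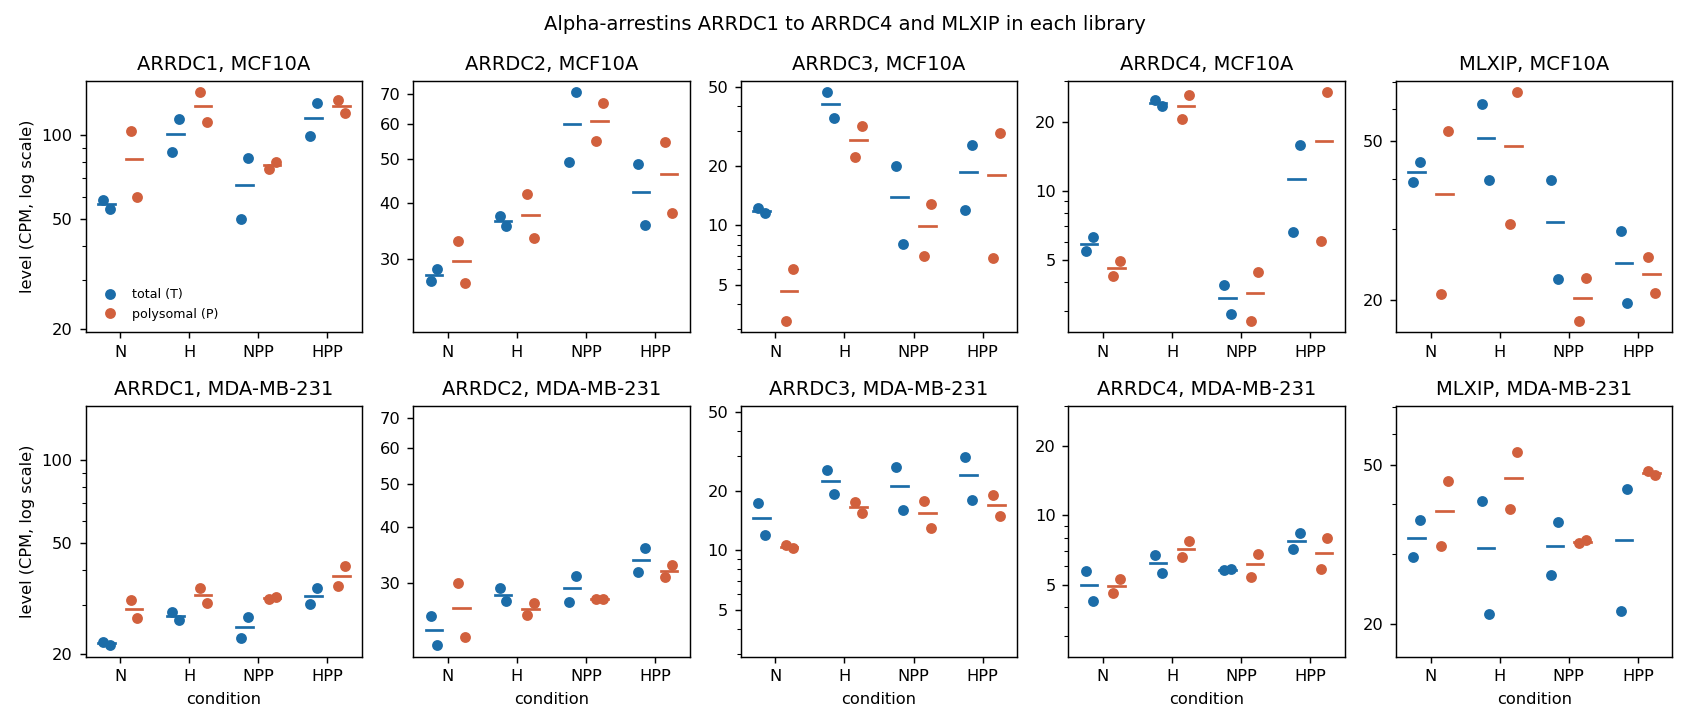
Level (CPM, log axes, 1 scale for each gene) of ARRDC1 to ARRDC4 and MLXIP in each library of MCF10A (top) and MDA-MB-231 (bottom) by condition, with points for total (T, blue) and polysomal (P, orange) libraries and short lines at the mean of 2. ARRDC4 in MCF10A stood at 20.6 to 26.2 CPM in H, at 2.72 to 4.44 CPM in NPP, and was spread from 6.05 to 26.8 CPM in HPP.

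Over the other tests of line differences, none of the 5 members besides TXNIP was called for PP242 in normoxia, in a test that called 0.0560% of genes in total and 0.126% in polysomal mRNA, or for HPP, where 3.31% and 3.60% were called.

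Translational efficiency (Te), the log2FC in polysomal minus that in total mRNA, was tested as an interaction. No member was called for H, NPP or HPP in either line among 32 member tests, with 0 at an unadjusted p under 0.05 and 0 by DESeq2. In MCF10A the fit called 0.00% of genes for each of the 3 treatments, although 23, 296 and 433 genes had an unadjusted p under 0.05 and DESeq2 called 0, 91 and 127 genes. In MDA-MB-231 it called 0.0148%, 0.340% and 0.696% of genes. TXNIP in MCF10A had a Te of 0.79 (SE 0.52) for NPP and of 0.79 (SE 0.52) for HPP, which are z-scores of 1.06 and 1.04 over all genes. Without 1 library the NPP value ran from 0.46 (N polysomal replicate 1) to 1.20 (N polysomal replicate 2) and the HPP value from 0.18 (HPP polysomal replicate 2) to 1.21 (HPP polysomal replicate 1).
ARRDC3 had the highest z-score of the members, 1.57 for HPP in MCF10A (Te 1.20, SE 0.88, adjusted p = 0.977), and ARRDC4 had 1.06 there (Te 0.81, SE 0.78). Both values turned below 0 without the HPP polysomal replicate 2. In normoxia itself no member was called between P and T, with 0 of 12 called, 1 at an unadjusted p under 0.05 and 0 by DESeq2. The background was 0.00% in MCF10A, with 1660 genes at an unadjusted p under 0.05, and 13.1% in MDA-MB-231. The widest differences were in MCF10A, with ARRDC3 at 12.2 and 11.5 CPM in T and at 3.30 and 6.04 CPM in P (log2FC −1.24, SE 0.63, adjusted p = 0.445) and ARRDC1 at a log2FC of 0.66 (SE 0.32, adjusted p = 0.422). TXNIP had a log2FC of −0.44 (SE 0.37, adjusted p = 0.693) in MCF10A.

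The genes around TXNIP were taken as lists, described by the number called in HPP against N, where 14.9% and 22.2% of all genes were called in MCF10A total and polysomal mRNA and 13.2% and 19.4% in MDA-MB-231. MLX, the partner of MondoA, was the called member of the 3 MondoA and MLX genes, and it fell. In MCF10A polysomal mRNA it stood at 170 and 128 CPM in N and at 70.4 and 53.4 CPM in HPP (log2FC −1.32, SE 0.32, adjusted p = 0.0128). In MDA-MB-231 polysomal mRNA it stood at 101.9 and 109.9 CPM in N and at 56.8 and 60.1 CPM in HPP (log2FC −0.89, SE 0.13, adjusted p = 0.000305), and at 60.2 and 67.1 CPM in NPP (log2FC −0.75, SE 0.13, adjusted p = 0.00439). No HPP library of either line reached an N library in polysomal mRNA.
In total mRNA MLX fell in MDA-MB-231 with HPP (log2FC −0.44, SE 0.13, adjusted p = 0.0325) and was not called in MCF10A. The MCF10A polysomal call was lost without N replicate 1 or HPP replicate 2 (adjusted p of 0.139 and 0.123), the MDA-MB-231 NPP call without NPP replicate 1 (adjusted p = 0.107), and the total mRNA call without any 1 of its 4 libraries (adjusted p of 0.0559 to 0.229) and with no filter (0.183). A fit to only the libraries compared took the NPP and total mRNA calls to adjusted p of 0.0558 and 0.0771. MLXIPL, which encodes the MondoA relative ChREBP, never exceeded 26 counts.

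Among 9 ligases of the NEDD4 family, 8 were tested in MCF10A and 9 in MDA-MB-231. NEDD4L, a ligase for sodium channels and other membrane proteins, rose with PP242 in MCF10A with or without hypoxia. Its polysomal mRNA stood at 17.9 and 24.2 CPM in N, at 16.8 and 23.9 in H, at 85.6 and 77.8 in NPP and at 55.3 and 81.9 in HPP. The log2FC against N was 1.97 (SE 0.29, adjusted p = 0.0122) for NPP and 1.64 (SE 0.29, adjusted p = 0.00264) for HPP, and in total mRNA 1.56 (SE 0.29, adjusted p = 0.0368) and 1.38 (SE 0.29, adjusted p = 0.00827). It was the single ligase of 8 called in MCF10A in these comparisons, where HPP called 14.9% and 22.2% of all genes in total and polysomal mRNA and NPP 0.648% and 0.823%. The polysomal HPP call held without any 1 library, the polysomal NPP call was lost without any 1 of its 4 (adjusted p of 0.0695 to 0.157), and the total mRNA calls were lost without either N library, that for NPP also without NPP replicate 1 and in a fit to only its 4 libraries (adjusted p = 0.982).
In MDA-MB-231 NEDD4L started at 161 to 210 CPM in N and rose with HPP by 0.64 in total (SE 0.16, adjusted p = 0.0179) and 0.61 in polysomal mRNA (SE 0.16, adjusted p = 0.0172) on the log2 scale. NEDD4 rose there too, by 0.70 (SE 0.19, adjusted p = 0.0258) and 0.84 (SE 0.19, adjusted p = 0.00717), and HECW1, a ligase expressed mainly in neurons, fell in total mRNA (log2FC −0.80, SE 0.23, adjusted p = 0.0359). For HPP these were 3 of 9 ligases in total and 2 of 9 in polysomal mRNA, where 13.2% and 19.4% of all genes were called. These MDA-MB-231 calls were each lost without at least 1 library: NEDD4L without N replicate 1, N replicate 2 or HPP replicate 1 in total and N replicate 1 or either HPP library in polysomal mRNA, NEDD4 without N replicate 2 or HPP replicate 1 in total and N replicate 1 or HPP replicate 1 in polysomal mRNA, and HECW1 without any 1 of 4, with DESeq2 (adjusted p = 0.0723), with no filter (0.0912) and in a fit to only the libraries compared (0.0782). ITCH, the ligase known to ubiquitinate TXNIP, had log2FC of −0.49 to 0.41 over H, NPP and HPP in both lines and was not called. The 2 NPP total libraries of MCF10A were far apart, at 94.1 and 24.6 CPM for ITCH and 165.7 and 36.0 CPM for NEDD4.

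Of 7 genes of glucose uptake and phosphorylation, 6 were tested in MCF10A, and 3 rose with HPP in total and 4 in polysomal mRNA, with none called lower, where 14.9% and 22.2% of all genes were called in either direction. SLC2A3 (the glucose transporter GLUT3) polysomal mRNA went from 2.48 and 2.91 CPM in N to 51.9 and 66.5 CPM in HPP in MCF10A (log2FC 4.39, SE 0.30, adjusted p = 3.06e-05). In MDA-MB-231 it went from 14.0 and 11.7 to 50.2 and 41.5 CPM (log2FC 1.80, SE 0.28, adjusted p = 0.000631). SLC2A1, the transporter that TXNIP removes from the surface, went from 54.7 and 76.7 to 375 and 565 CPM in MCF10A polysomal mRNA (log2FC 2.78, SE 0.30, adjusted p = 0.000208).
SLC2A1 and SLC2A3 were also the 2 of 6 tested genes of this list called with hypoxia alone in MCF10A, by 1.77 and 1.38 in total and 1.85 and 1.57 in polysomal mRNA on the log2 scale, where 1.54% and 1.49% of all genes were called. SLC2A3 rose with PP242 in normoxia in MCF10A polysomal mRNA (log2FC 1.55, SE 0.27, adjusted p = 0.0246), as the 1 of 6 called there, against 0.823% of all genes. The polysomal HPP calls of SLC2A1 and SLC2A3 held without any 1 library. The hypoxia calls of both genes were lost without either N library or H replicate 2, that of SLC2A3 in total mRNA also without H replicate 1, and the NPP call of SLC2A3 without any 1 of its 4 libraries (adjusted p of 0.105 to 0.201). In fits to only the libraries compared, the polysomal adjusted p were 0.178 for SLC2A1 and 0.223 for SLC2A3 with hypoxia and 0.0740 for SLC2A3 with NPP. In MDA-MB-231, 3 of the 7 tested genes rose with HPP in each fraction, namely SLC2A3 and the hexokinases HK1 and HK2, where 13.2% and 19.4% of all genes were called. The median log2FC of the list for HPP was 1.34 and 1.71 in MCF10A total and polysomal mRNA and 0.77 and 0.74 in MDA-MB-231, against −0.01, −0.04, −0.05 and 0.01 over all genes.

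In the thioredoxin system, 1 of 10 genes was called in HPP against N in MCF10A total mRNA and 1 of 10 in MDA-MB-231 polysomal mRNA, against 14.9% and 19.4% of all genes. These were the only edgeR calls of this list in HPP against N, although 22.2% and 13.2% of all genes were called in MCF10A polysomal and MDA-MB-231 total mRNA. The first was TXNRD1 (thioredoxin reductase), which fell from 375 and 336 to 142.6 and 110.6 CPM (log2FC −1.45, SE 0.38, adjusted p = 0.0253). The second was TXN2, the mitochondrial thioredoxin, which fell by 0.59 on the log2 scale (SE 0.14, adjusted p = 0.0114). The TXNRD1 call was lost without any 1 of its 4 libraries (adjusted p of 0.0672 to 0.191) and the TXN2 call without N replicate 1 or HPP replicate 1 (adjusted p of 0.0574 and 0.130). TXN, the thioredoxin that TXNIP binds, was not called in HPP against N, with log2FC between −0.87 and 0.30. Of the 5 other arrestins, 2 were tested in MCF10A, and ARRB2 (beta-arrestin 2) fell in its polysomal mRNA with HPP (log2FC −1.29, SE 0.42, adjusted p = 0.0467). That call was lost with RLE scaling (adjusted p = 0.0583), with no filter (0.0586), in a fit to only the libraries compared (0.0580) and without N replicate 1 or either HPP library.

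The genes whose level over the libraries was most like that of TXNIP were ranked by the lower of the Pearson r in the 2 lines, over the 16 libraries of each and 12374 genes. The first 6 were CCNG2 (r = 0.932 in MCF10A and 0.929 in MDA-MB-231), PBXIP1 (0.950 and 0.929), ZFYVE1 (0.903 and 0.960), GPRC5A (0.933 and 0.896), TSC22D3 (0.933 and 0.895) and PAQR8 (0.904 and 0.892). The libraries of a line share treatments, and T and P libraries of the same treatment enter together, so these r are a description. No other member was near TXNIP in this order, where ARRDC2 stood at rank 735 (r = 0.576 and 0.728), ARRDC1 at rank 1111, ARRDC3 at 1346, ARRDC4 at 2159 and MLXIP at 8043.
The first 4 genes for ARRDC4 were ATG9A, FAM167B, RNF122 and C11orf45, with r of 0.809 to 0.868 in MCF10A and 0.755 to 0.780 in MDA-MB-231. ARRDC4 and ARRDC3 had an r of 0.827 over the MCF10A and of 0.409 over the MDA-MB-231 libraries. The first 4 for ARRDC3 were ZNF490, ANKZF1, ACAP1 and C6orf120, with r of 0.716 to 0.755 and 0.714 to 0.784.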

How the data were processed

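RNA-Seq was done on poly(A)-selected TruSeq libraries of total and polysome-bound mRNA, 32 in all, 16 from each cell line. According to the methods, the authors mapped reads to GRCh38 with STAR and the GENCODE v24 annotation and used RSEM to estimate expected counts for each gene, while the submitters' processing notes list GRCh37 as a build with no role. The deposited values are these expected counts as whole numbers, not normalised, for 60554 genes. RSEM shares reads among similar genes, and no strand is stated.

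Counts were fitted in R 4.3.3 with edgeR 4.0.16 (quasi-likelihood F test, filterByExpr, TMM scaling, Benjamini-Hochberg adjustment over all genes, threshold 0.05). Each line was fitted as 16 libraries in 8 groups, with 13124 genes tested in MCF10A and 13510 in MDA-MB-231, and comparisons of the lines came from a fit of all 32 libraries and 14298 genes. The SE is the absolute log2FC over the square root of F. CPM use the TMM scale of the 32 libraries, and levels per kb use exon lengths from GENCODE v44 on GRCh38, which also gave the positions. Promoter windows came from RefSeq. Likeness to a gene was the Pearson r of log2 CPM with a prior count of 2. The p-values rest on the spread between the 2 libraries of each group, pooled over the groups of a fit and over genes. The labels call these libraries replicates.

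The members and lists were chosen with earlier results of these data known. The rule for named genes was all 6 members, up to 4 called genes of each list by the smallest p, and the genes most like TXNIP, ARRDC4 and ARRDC3. The lists were MondoA and MLX factors, other arrestins, NEDD4-family ligases, the thioredoxin system and glucose uptake with phosphorylation. Alternatives were DESeq2 1.42.0, RLE scaling, no filter, only the libraries compared, replicate blocks, other thresholds, the longest transcript, Spearman's rho and leaving out each library. A block by the number shared by the T and P libraries of a treatment was added after seeing the data. On simulated counts the edgeR fit was tested for the recovery of known changes.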

Additional observations from a re-analysis of the deposited data

Results flagged for a closer look

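The effect of hypoxia on TXNIP differed between the lines by the test of the difference itself, by −2.30 in total mRNA (SE 0.44, edgeR adjusted p = 0.0247) and by −2.88 in polysomal mRNA (SE 0.45, adjusted p = 0.00408) on the log2 scale. All 4 hypoxic MCF10A libraries were above all 4 normoxic ones, at 395 to 639 CPM against 46.4 to 91.1 CPM, and in MDA-MB-231 the 4 hypoxic libraries were at 175 to 195 CPM against 139 to 170 CPM. The N level was itself higher in MDA-MB-231, by 0.77 in total (SE 0.31, adjusted p = 0.0543) and 1.36 in polysomal mRNA (SE 0.32, adjusted p = 0.00136). The part of that N level in the difference was not tested, and line, medium and batch cannot be told apart.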

How the results depend on the processing

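Of 36 single-gene calls reported, DESeq2 kept 35, RLE scaling 35, no filter 32, a fit to only the libraries compared 24, the replicate block 35 and the replicate block within each fraction 36, and 10 held without any 1 library. No called value changed sign under any of these. Member calls with H against N numbered 2, and were 5 with DESeq2, 5 with no filter, 6 with the replicate block within each fraction and 4 with only the libraries compared. Calls over all genes moved too. In MCF10A total and polysomal mRNA, 202 and 195 became 503 and 556 with DESeq2 and 212 and 226 with no filter. They became 438 and 531 with that block and 601 and 6 with only the libraries compared. In MDA-MB-231, 171 and 310 became 353 and 652 with DESeq2 and 499 and 822 with no filter. They became 311 and 641 with that block and 44 and 162 with only the libraries compared. For NPP against N the count of 0 became 2 with DESeq2. Over all genes DESeq2 called 347 in MCF10A total and 665 in polysomal mRNA, and 249 and 529 in MDA-MB-231, each more than edgeR called. For HPP against N the count of 3 became 5 with DESeq2, 6 with no filter, 5 with the replicate block, 7 with that block within each fraction and 8 at an adjusted p under 0.10. Over all genes in MCF10A total and polysomal mRNA, 1956 and 2910 calls became 2741 and 3708 with DESeq2 and 1630 and 2558 with no filter. They became 2092 and 3019 with the replicate block and 3484 and 4785 within each fraction. In MDA-MB-231, 1786 and 2627 became 2136 and 3104 with DESeq2 and 2242 and 3053 with no filter. They became 2482 and 3412 with the replicate block and 2608 and 3606 within each fraction. For HPP against NPP the count of 2 became 4 with DESeq2 and 4 with no filter. Calls over all genes in MCF10A total and polysomal mRNA went from 547 and 976 to 1091 and 1686 with DESeq2 and 399 and 661 with no filter. In MDA-MB-231 they went from 367 and 480 to 692 and 932 with DESeq2 and 703 and 1088 with no filter. Between the lines in N, 3 became 5 with the block within each fraction and 5 at 0.10, and for P against T in N the block within each fraction took 0 to 1. That block took calls over all genes between the lines from 5826 to 7231 in total and from 6485 to 7871 in polysomal mRNA. For P against T it took them from 0 to 54 in MCF10A and from 1764 to 2646 in MDA-MB-231. Leaving out each library gave 1 to 2 calls for H, 0 to 1 for NPP, 0 to 2 for HPP against NPP and 1 to 3 for the line difference. Of the 12 ranks of level per length (6 in each line), 10 held with the longest transcript, where MLXIP and ARRDC3 changed places in MDA-MB-231. Uncalled values that changed sign were ARRDC4 polysomal HPP against H in MCF10A (−1.88 to 0.17) and, for HPP in MCF10A, the Te of ARRDC3 (−0.13 to 1.88) and ARRDC4 (−0.56 to 1.57). By Spearman's rho, 3 of the 6 genes most like TXNIP, 2 of 4 for ARRDC4 and 1 of 4 for ARRDC3 were kept.

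Replicate numbers were shared by the groups. In MCF10A the differences between replicates 1 and 2 correlated across genes at 0.307 to 0.807 in the 6 pairs of total groups, −0.118 to 0.663 in the 6 polysomal pairs and −0.284 to 0.166 in the 4 pairs of T and P of a treatment. In MDA-MB-231 they did so at −0.193 to 0.363, 9.75e-05 to 0.339 and 0.0204 to 0.342, with 4 of 6, 5 of 6 and 3 of 4 over 0.1. No label says that a number marks a batch, so the paired fits stand as alternatives only. The replicate block over both fractions called ARRDC3 in MDA-MB-231 with H in P (adjusted p = 0.0356) and with HPP in T (0.0162) and P (0.0109), ARRDC2 there with HPP in T (0.0492) and TXNIP between the lines in N in T (0.0486), and it lost ARRDC1 with HPP in MCF10A T (0.0563). The block within each fraction called the same ARRDC3 results (0.0229, 0.0101 and 0.00597), ARRDC4 with HPP in MDA-MB-231 T (0.0374), ARRDC4 with H in MCF10A T (0.0358) and P (0.0238), ARRDC3 in MCF10A P with H (0.0177) and HPP (0.0194), TXNIP in MCF10A T in HPP against NPP (0.0104), and between the lines in N TXNIP in T (0.0142) and ARRDC3 in P (0.0132). It raised the genes called between P and T in normoxic MCF10A cells from 0 to 54, and DESeq2 to 40. For Te in MCF10A the count of 0 genes became 100 for HPP with that block, and 91 for NPP and 127 for HPP with DESeq2. The block by the number shared by T and P, added after seeing the data, called no member for Te or P against T in N. The fewest counts behind a member were 61 for ARRDC4 and 88 for ARRDC3 in MCF10A.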
